A study of Mus musculus with 6 samples.

Results

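The Wnt ligands, their receptors, R-spondins, secreted antagonists and main effectors were followed in wire-injured carotid arteries of mice without IRF4 and of wild-type mice. Members were named by gene symbol: each gene of the Wnt, Fzd (Frizzled), Rspo, Dkk and Axin families, the secreted frizzled-related genes Sfrp1, Sfrp2, Sfrp4 and Sfrp5, and Lrp5, Lrp6, Wif1, Lef1, Tcf7l1, Tcf7l2 and Ctnnb1. The probe sets with a single annotated gene symbol gave 50 such genes out of 18194, measured by 98 probe sets, and each gene was read from its brightest probe set, judged by the mean of the 6 arrays. They comprised 19 ligands, 12 receptors, 4 R-spondins, 9 secreted antagonists and 6 cytoplasmic or nuclear effectors. Tcf7 had no probe set named here, and Frzb, the gene of the third frizzled-related protein, carries a symbol outside the choice and was read with other pathway genes.

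RNA came from carotid arteries collected 14 days after a wire had been passed through them, from mice with a global knockout of IRF4, a transcription factor of immune cells (IRF4 KO, 3 arrays), and from wild-type mice (WT, 3 arrays). Both genotypes had the injury, and no uninjured vessel was analysed here. Each array held 400 ng of RNA from 3 to 5 pooled vessels, so an array is a pool and not a single animal, and the knockout covers all cells of the mouse rather than the vessel wall alone. The sources used here do not give strain, sex, age or the part of Irf4 that was deleted. The values are log2 intensities after RMA, which the authors applied to remove background, put the arrays on 1 scale and merge each set's probes into 1 value. Levels are on that log2 scale, differences are IRF4 KO minus WT, and errors are SD over 3 arrays unless called SE.

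Wnt proteins are secreted lipid-modified ligands that bind Frizzled receptors together with the co-receptors LRP5 or LRP6. Binding stops a destruction complex built on AXIN from degrading beta-catenin, which then enters the nucleus and switches on target genes with TCF and LEF proteins. R-spondins strengthen this signal by keeping Frizzled at the cell surface. SFRP and WIF1 proteins bind Wnt ligands, and DKK1, DKK2 and DKK4 bind the LRP co-receptors. In the vessel wall Wnt signalling is known for effects on smooth muscle growth and on endothelial barrier and branching, and in the skeleton for control of cartilage and bone.

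The targeted gene did not check the labels. Irf4 read 3.27, 3.75 and 3.70 in IRF4 KO arrays 1 to 3, against 3.90, 3.64 and 3.38 in WT arrays 1 to 3, below the median of all gene levels (4.89). The difference was -0.065 (SE 0.22, limma adjusted p = 0.999). All 8 smooth muscle markers read above 4.89 on every array and 5 of 8 endothelial markers did so. Of the smooth muscle markers, Acta2, Tagln and Smtn were higher in IRF4 KO without overlap, as were 2.37% of all genes. Acta2 read 13.84, 13.92 and 13.90 in IRF4 KO, against 12.80, 12.84 and 12.62 in WT. Myh11, Cnn1, Lmod1, Synpo2 and Des overlapped, and the part of smooth muscle in the Wnt levels was not tested. Arrays IRF4 KO 1 and WT 3 stood apart from the other 4. Their poly-A spike-in controls averaged 5.14 and 4.93, against 7.35 to 9.26 on the others. Their cartilage markers averaged 7.65 and 7.37 (8 of 9 genes highest on these 2 arrays), against 3.58 to 3.94. Their macrophage markers averaged 9.14 and 7.92 (8 of 8), against 4.44 to 5.44. Bone markers averaged 7.08 and 5.76 (5 of 5 measured genes), against 3.57 to 3.76, and adventitial fibroblast markers 9.75 and 9.21 (6 of 7), against 7.38 to 7.52. Since each genotype held 1 of these arrays, the main results that rest on them are given with and without them. In such bulk tissue, fewer cells of a type and less RNA per cell cannot be told apart. These 2 arrays and their markers were known from earlier results of the same data and are no independent support.

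Promoter sequences are shown for 4 members. Sfrp2 had the largest difference between genotypes, Axin2 is a feedback target that separated them narrowly, and Dkk2 had the widest range over the arrays. Wnt2 was picked for its motif match and not for its values. Each run is 5′ to 3′ along the gene's strand from RefSeq on GRCm38.p6, from 250 bases before to 50 bases after the annotated start, and capitals mark a match to a searched motif.
Sfrp2 promoter, chr3:83766071-83766370, plus strand: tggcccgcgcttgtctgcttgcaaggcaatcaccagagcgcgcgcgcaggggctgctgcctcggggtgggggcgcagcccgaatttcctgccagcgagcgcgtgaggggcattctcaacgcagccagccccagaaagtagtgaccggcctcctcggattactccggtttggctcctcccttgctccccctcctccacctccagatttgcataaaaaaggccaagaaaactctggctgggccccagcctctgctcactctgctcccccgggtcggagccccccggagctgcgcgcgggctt
Axin2 promoter, chr11:108920099-108920398, plus strand: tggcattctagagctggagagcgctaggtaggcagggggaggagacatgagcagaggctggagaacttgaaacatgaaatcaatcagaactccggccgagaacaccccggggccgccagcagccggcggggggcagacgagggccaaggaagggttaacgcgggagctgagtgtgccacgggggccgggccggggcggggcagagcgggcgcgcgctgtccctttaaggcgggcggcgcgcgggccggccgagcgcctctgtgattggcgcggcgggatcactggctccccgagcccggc
Dkk2 promoter, chr3:132085042-132085341, plus strand: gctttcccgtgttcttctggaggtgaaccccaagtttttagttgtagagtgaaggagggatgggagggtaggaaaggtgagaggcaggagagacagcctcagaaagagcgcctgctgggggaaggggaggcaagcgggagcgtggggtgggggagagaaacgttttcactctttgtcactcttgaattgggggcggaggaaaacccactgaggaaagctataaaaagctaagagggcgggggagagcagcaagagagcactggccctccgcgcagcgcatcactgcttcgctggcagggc
Wnt2 promoter, chr6:18030396-18030695, minus strand: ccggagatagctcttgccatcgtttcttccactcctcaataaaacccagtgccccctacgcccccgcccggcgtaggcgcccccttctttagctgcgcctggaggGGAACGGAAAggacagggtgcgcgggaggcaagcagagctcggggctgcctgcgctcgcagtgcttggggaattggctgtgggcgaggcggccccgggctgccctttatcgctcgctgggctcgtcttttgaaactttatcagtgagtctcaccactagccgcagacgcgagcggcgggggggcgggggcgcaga

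The table of promoters held 41 promoters of 33 members. Both strands were searched for 3 motifs. The composite site that ETS proteins and IRF4 bind together was searched as GGAA, any 2 bases, then GAAA. The core of the interferon-stimulated response element was searched as GAAA, any 2 bases, then GAAA, and can overlap the composite site. A core of TCF and LEF sites was searched as CTTTGA. The composite letters were found in 1 member promoter, that of Wnt2 (2.44% of member promoters, against 2.72% of all 32851 promoters), where they are the capitals above. The response element core was found in 0 member promoters, against 3.44% of all promoters. CTTTGA was found in 5 of the 41 (Dkk1, Fzd1, Lef1, Wnt11 and Wnt5b), or 12.2%, against 16.0% of all promoters. Member promoters were rich in G and C, with a median of 69.0% against 52.7% over all promoters. A match is a run of letters in this window and not a bound site.

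The comparison of IRF4 KO with WT arteries asks how loss of IRF4 alters the injured vessel. None of the 50 Wnt genes passed the test against the spread between arrays: limma called 0 of 50 at an adjusted p under 0.05, as it called 0 of 18194 genes (percent called 0), and the smallest adjusted p among members was 0.999. At an unadjusted p under 0.05 there were also 0 members, where the share over all genes was 1.49% (0.407% higher and 1.08% lower in IRF4 KO). The genotypes did not overlap in 2 members, Sfrp5 and Axin2, against 5.68% of all genes. Read as directions without a test, 34 members were higher and 16 lower in IRF4 KO, with a median difference of 0.095. Over all genes 49.7% were higher and the median was -0.0015. Both Sfrp2 and Sfrp4 differed by more than 0.5, and the other 48 members by less.

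The intervals give the precision of each difference on the probe set used and do not bound what could be missed. The 95% interval of the difference included 0 in all 50 members, and in 41 of them it lay wholly between -1 and 1, that is, within a 2-fold change in either direction on this scale. It was wider for Sfrp2, Sfrp4, Dkk2, Wif1, Fzd5, Fzd9, Rspo3, Wnt5a and Wnt16. Weaker probe sets of the same gene could fall outside it. Those of Sfrp1 and Ctnnb1 differed by up to 1.11 and 0.89, where the intervals ended at 0.75 and 0.57. RMA draws weak probe sets toward background, and 28 members read below 4.89 in both genotypes, so a change in those can be understated. The level of a probe set depends on its probes, and levels of different genes are not ranked here.

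**Figure D1:**
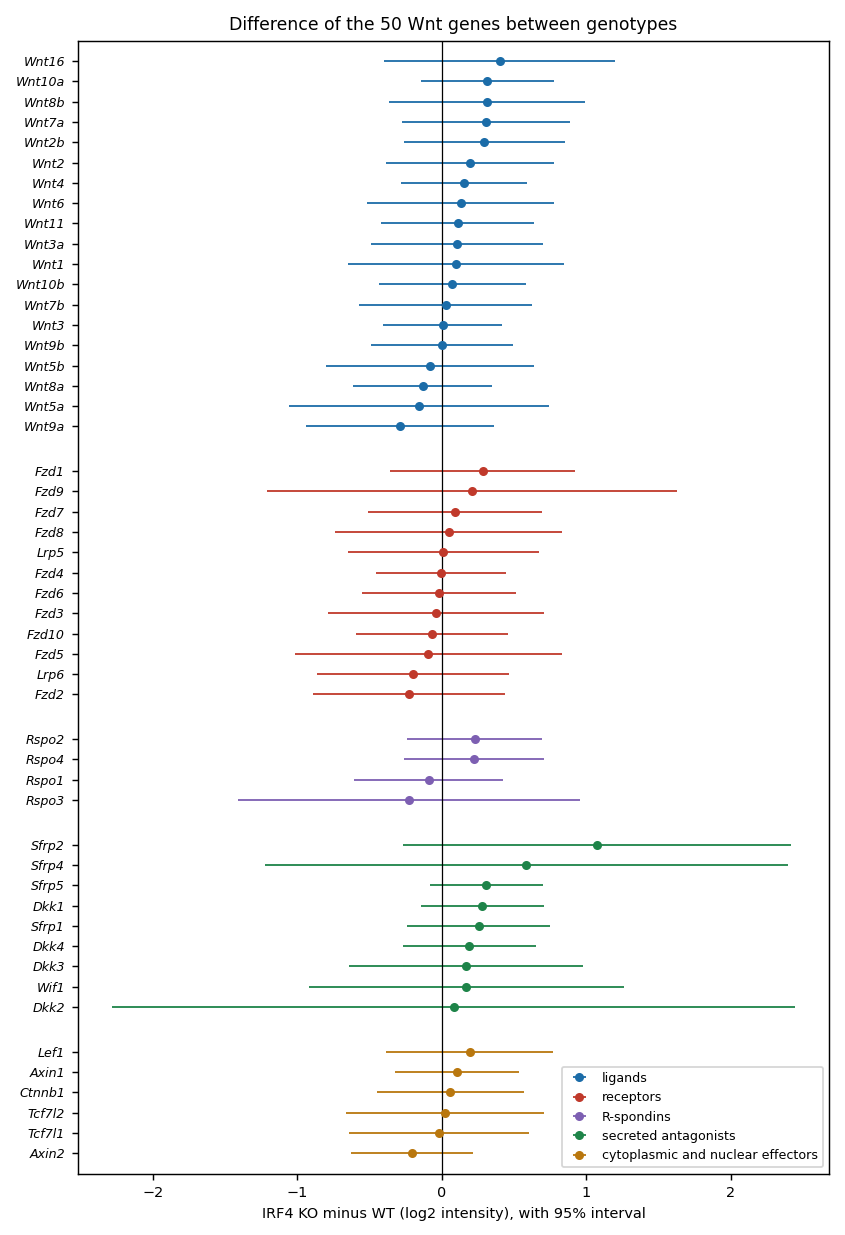
Difference between IRF4 KO and WT (log2 intensity, horizontal axis) for the 50 Wnt genes grouped by role, points with 95% intervals from limma over 3 arrays per genotype. All 50 intervals cross 0, and the secreted antagonists lie on the positive side, Sfrp2 farthest at 1.07.

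All 9 secreted antagonists read higher in IRF4 KO, with a median difference of 0.25, although 0 of 9 passed the test. Differences ran between 0.081 (Dkk2) and 1.07 (Sfrp2). All 9 were higher also after subtraction of array medians and after quantile normalization, while 6 of 9 were higher without IRF4 KO 1, 7 without WT 1, and 8 over the 4 arrays other than IRF4 KO 1 and WT 3. In a second list of 12 measured antagonists outside the choice by symbol, among them Frzb, Sost and Notum, 11 were higher and 0 were called (median 0.14). That count was 9 without IRF4 KO 1 and 7 without IRF4 KO 2. RNA quality signs differed between arrays too. The 3′ minus 5′ difference of the Gapdh control probe sets was 1.52, 2.24 and 1.78 in IRF4 KO arrays 1 to 3, against 3.35, 1.59 and 3.36 in WT arrays 1 to 3. For the actin control it was 1.43, 2.0 and 1.64 in IRF4 KO, against 3.12, 1.54 and 2.12 in WT. WT 1 and WT 3 thus read above every IRF4 KO array and WT 2 did not, and the part of this in the antagonists or the other roles was not tested. Among all genes the split depended on level: of genes above 4.89 in both genotypes 38.6% were higher, and of the rest 60.3%.

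Sfrp2 encodes a secreted frizzled-related protein made by fibroblasts and other mesenchymal cells. It read 11.74, 10.15 and 10.27 in IRF4 KO arrays 1 to 3, against 8.81, 9.26 and 10.87 in WT arrays 1 to 3. WT 3 lay above IRF4 KO 2 and 3, so the genotypes overlapped. The means were 10.72 ± 0.88 in IRF4 KO and 9.65 ± 1.08 in WT, a difference of 1.07 (SE 0.59) or 2.10-fold (limma adjusted p = 0.999). IRF4 KO 1 exceeded WT 3 by 0.87, and the remaining 4 arrays gave 1.18 without overlap (limma adjusted p = 0.351), where 29.9% of all genes did not overlap. A limma fit that blocked on the spike-in level gave 1.07 (SE 0.20, adjusted p = 0.143). Unadjusted, Sfrp2 passed 0.05 in both of these fits, as did 3.87% of all genes over the 4 arrays and 3.68% with the block. Sfrp2 was thus higher in IRF4 KO over the 4 arrays and in the pair, which holds 1 array of each genotype and no replicate. It still missed the threshold over all genes in both fits. Fibroblast markers averaged 9.75, 7.38 and 7.38 in IRF4 KO, against 7.51, 7.52 and 9.21 in WT. Over the 4 arrays only Lum and Col1a1 of that list were higher in IRF4 KO on average. The other measured genes of the list (Pdgfra, Dcn, Dpt, Pi16 and Cd34) were lower. The part of fibroblast content in the Sfrp2 level was not tested.

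Sfrp4 encodes a related protein. Its levels were 9.71, 6.67 and 6.73 in IRF4 KO, against 6.53, 6.79 and 8.04 in WT. IRF4 KO 1 was the highest array and WT 3 the next. The difference was 0.59 (SE 0.79, limma adjusted p = 0.999), and over the 4 arrays other than IRF4 KO 1 and WT 3 it was 0.040. Bone, cartilage, macrophage and fibroblast markers were high on the same 2 arrays as Sfrp4, and their part in its level was not tested. Sfrp1, a ligand-binding antagonist of smooth muscle and fibroblasts, read 8.33, 8.24 and 7.97 in IRF4 KO, against 7.60, 8.10 and 8.08 in WT. Its difference of 0.25 (SE 0.22) split into 0.25 for IRF4 KO 1 minus WT 3 and 0.26 for the remaining 4 arrays. The 4 further Sfrp1 probe sets gave differences from 0.0022 to 1.11, and the genotypes overlapped on all 5.

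Sfrp5, which encodes a Wnt-binding protein known from fat tissue, was 1 of the 2 members without overlap. It read 4.61, 4.62 and 4.70 in IRF4 KO, against 4.40, 4.31 and 4.30 in WT, with a gap of 0.20 between the groups. The difference was 0.31 (SE 0.17, limma adjusted p = 0.999), from levels below 4.89. The SDs were 0.053 and 0.058, against a median SD within a genotype of 0.35 over the members. Its other probe set differed by -0.063 and overlapped. The share of all genes with no overlap and IRF4 KO higher was 2.37%.

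The Dickkopf genes encode inhibitors of the LRP co-receptors, except Dkk3, a divergent member. Dkk2 read 5.93, 2.68 and 2.64 in IRF4 KO, against 2.49, 2.92 and 5.59 in WT. Its level was high on IRF4 KO 1 and WT 3 alone, and its range of 3.43 was the widest of the 50 members. The difference between genotypes was 0.081 (SE 1.03), and -0.045 without those arrays. Cartilage, bone, macrophage and fibroblast markers were high on the same 2 arrays, and their part in the Dkk2 level was not tested. Dkk3 read 9.07, 8.30 and 8.0 in IRF4 KO, against 7.73, 8.32 and 8.81 in WT, again with IRF4 KO 1 and WT 3 highest. Its difference was 0.17 (SE 0.35), and 0.13 without those arrays. Dkk1 and Dkk4, both below 4.89 in the 2 genotypes, differed by 0.28 and 0.19 with adjusted p of 0.999.

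Wif1, which encodes a Wnt-binding inhibitor, ran the other way over the arrays. It was picked after its values were seen, for the opposite pattern. It read 6.86, 8.10 and 8.13 in IRF4 KO, against 7.76, 8.22 and 6.59 in WT. The lowest values were those of IRF4 KO 1 and WT 3, and the difference between genotypes was 0.17 (SE 0.48, adjusted p = 0.999), or 0.12 without them.

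**Figure D2:**
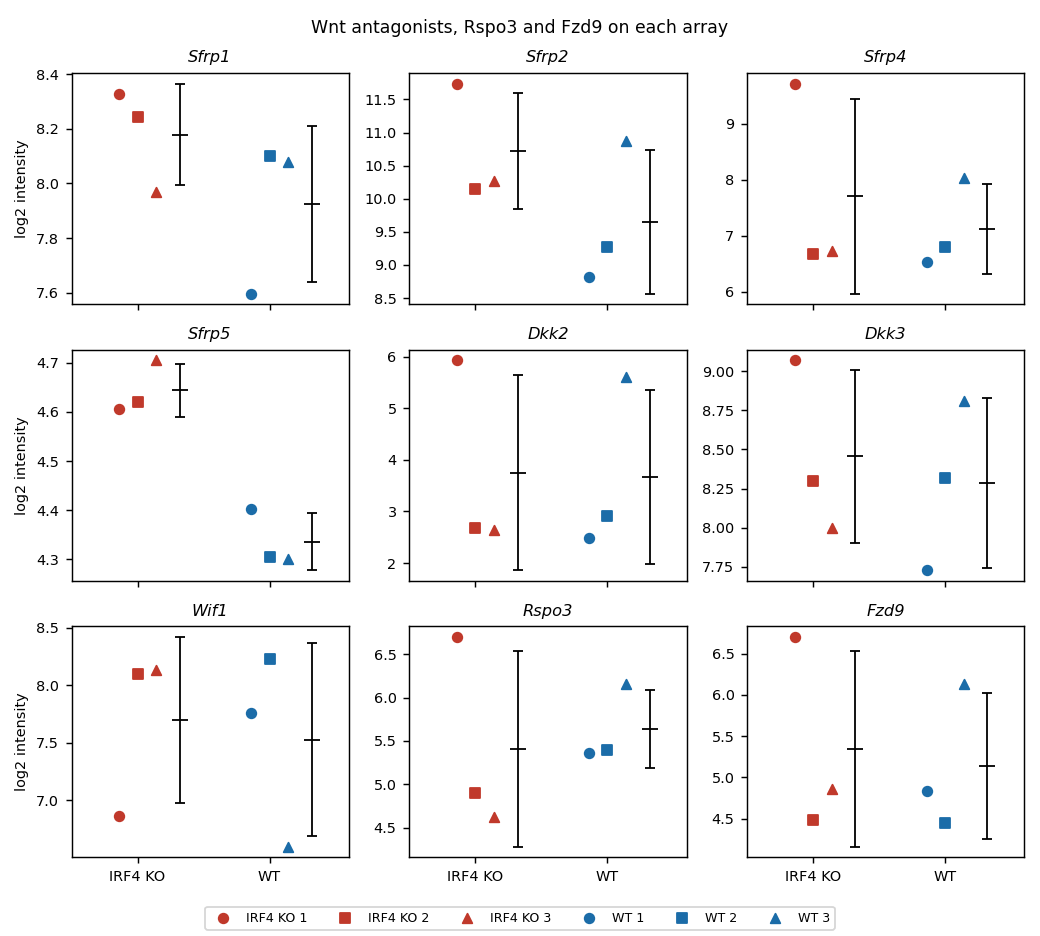
Log2 intensity (vertical axis, a separate scale in each panel) of 7 antagonists, Rspo3 and Fzd9 on the 3 IRF4 KO and 3 WT arrays, with the mean and SD beside each group. IRF4 KO 1 and WT 3 are the 2 highest arrays for Sfrp2, Sfrp4, Dkk2, Dkk3, Rspo3 and Fzd9 and the 2 lowest for Wif1; Sfrp5 alone of these shows no overlap.

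Wnt ligands were mostly weak on these arrays: 16 of 19 read below 4.89 in both genotypes, and 0 of 19 passed the test. Of the 19, 14 were higher and 5 lower in IRF4 KO, with a median of 0.11 and differences between -0.29 (Wnt9a) and 0.40 (Wnt16). This majority was not stable: 9 of 19 were higher without IRF4 KO 3, and 9 without WT 3. Of all genes not above 4.89 in both genotypes, 60.3% were higher in IRF4 KO. Wnt7a and Wnt7b encode ligands known from epithelium and from signals to endothelium. Wnt7a read 5.46, 5.88 and 6.39 in IRF4 KO, against 5.68, 5.6 and 5.53 in WT, a difference of 0.30 (SE 0.25) in which IRF4 KO 3 was highest and IRF4 KO 1 lowest. Wnt7b read 5.94, 5.99 and 6.70 in IRF4 KO, against 6.45, 6.18 and 5.92 in WT, a difference of 0.026. Wnt9a, a ligand of joint and limb development, read 4.98, 5.59 and 4.65 in IRF4 KO, against 5.67, 5.39 and 5.03 in WT (-0.29, SE 0.28).

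Both Wnt16 and Wnt5a had the widest ranges among the ligands. Wnt16, a ligand of cortical bone and joints, read 5.25, 4.39 and 4.82 in IRF4 KO, against 3.79, 4.43 and 5.05 in WT (0.40, SE 0.35). Wnt5a, the main ligand of beta-catenin-independent signalling, read 4.67, 3.84 and 3.56 in IRF4 KO, against 4.16, 3.53 and 4.87 in WT (-0.16, SE 0.39). IRF4 KO 1 and WT 3 were the 2 highest arrays for both genes, and the genotypes overlapped. Without these arrays the differences were 0.50 for Wnt16 and -0.14 for Wnt5a. The 3 other Wnt5a probe sets differed by 0.0015 to 0.32, in the direction opposite to the probe set used. The remaining 14 ligands differed by -0.13 to 0.31 and ranged by 0.24 to 1.15 over the arrays. Wnt2, a ligand of lung and vessel development whose promoter held the composite IRF letters, differed by 0.19 (SE 0.25).

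Of the receptor genes, 9 of 12 read above 4.89 in both genotypes, and 0 of 12 passed. Of the 12, 5 were higher and 7 lower in IRF4 KO with a median of -0.014, and with 1 array left out the count higher ran from 3 (without WT 2) to 9 (without WT 3), while array weights gave 10. Fzd1, a Frizzled receptor of mesenchymal tissue, read 8.87, 9.02 and 8.76 in IRF4 KO, against 8.20, 8.40 and 9.21 in WT. Its difference of 0.28 (SE 0.28) split into -0.34 for IRF4 KO 1 minus WT 3 and 0.60 for the remaining 4 arrays (limma adjusted p = 0.999). Fzd7 read 7.71, 8.30 and 7.53 in IRF4 KO, against 7.49, 7.70 and 8.08 in WT (0.090, SE 0.26). Fzd2 read 7.31, 8.17 and 7.08 in IRF4 KO, against 7.63, 7.73 and 7.87 in WT (-0.22, SE 0.29), and its 2 other probe sets differed by 0.055 and 0.35. For Fzd1, Fzd7 and Fzd2 the genotypes overlapped, and IRF4 KO 1 read below WT 3.

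Fzd9 and Fzd5 had the widest ranges among the receptors. Fzd9, a receptor known from bone and nervous tissue, read 6.70, 4.48 and 4.85 in IRF4 KO, against 4.83, 4.45 and 6.13 in WT. It was high on IRF4 KO 1 and WT 3, with a difference of 0.21 (SE 0.62) over all arrays and 0.027 over the other 4. Fzd5, a receptor known from retina, gut and yolk sac vessels, read 6.13, 6.33 and 5.13 in IRF4 KO, against 5.44, 5.75 and 6.67 in WT (-0.093, SE 0.40). The co-receptor gene Lrp6 differed by -0.20 (SE 0.29) and by 0.29 on its other probe set, and Lrp5 differed by 0.010. The other receptors (Fzd3, Fzd4, Fzd6, Fzd8 and Fzd10) differed by -0.070 to 0.047 on the probe sets used, and Fzd4 is the receptor of retinal vessel growth. Weaker probe sets differed more for Fzd4 (-0.33 and -0.28), Fzd6 (0.15 and 0.51) and Fzd8 (-0.39). That of Fzd8 was lower in IRF4 KO without overlap, where 6.24% of all probe sets did not overlap.

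Among the R-spondins, Rspo3 alone read above 4.89 in both genotypes. Rspo3, an R-spondin of endothelium and stroma, read 6.70, 4.90 and 4.62 in IRF4 KO, against 5.36, 5.39 and 6.15 in WT. The difference of -0.23 (SE 0.52) joined opposite directions: 0.55 for IRF4 KO 1 minus WT 3 and -0.62 for the remaining 4 arrays (limma adjusted p = 0.999). Its other probe set differed by 0.32. Rspo2 read 3.90, 4.02 and 4.36 in IRF4 KO, against 4.06, 3.80 and 3.73 in WT (0.23, SE 0.20). Rspo1 read 3.11, 2.72 and 3.00 in IRF4 KO, against 3.39, 2.80 and 2.91 in WT (-0.091, SE 0.22), and Rspo4 differed by 0.22.

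None of the 6 effectors passed the test, and their differences lay between -0.21 and 0.19. Ctnnb1, the beta-catenin gene, read 11.54, 11.38 and 11.25 in IRF4 KO, against 11.05, 11.23 and 11.70 in WT, a difference of 0.060 (95% interval -0.45 to 0.57). Axin1, a scaffold of the destruction complex, read 6.31, 6.14 and 6.01 in IRF4 KO, against 5.95, 5.98 and 6.21 in WT (0.10, SE 0.19). The TCF factor gene Tcf7l1 read 6.92, 6.98 and 7.11 in IRF4 KO, against 7.16, 6.45 and 7.47 in WT (-0.021, SE 0.27). Tcf7l2 read 6.35, 6.38 and 5.58 in IRF4 KO, against 5.67, 6.07 and 6.51 in WT (0.020, SE 0.30), and Lef1 differed by 0.19. All 6 effectors had an adjusted p of 0.999 in the comparison of the 6 arrays, and Axin2 alone showed no overlap.

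Axin2, a feedback inhibitor and a common readout of beta-catenin signalling, read 4.25, 4.52 and 4.54 in IRF4 KO, against 4.77, 4.54 and 4.61 in WT. The gap between the highest IRF4 KO and the lowest WT array was 0.0021. The difference was -0.21 (SE 0.19, limma adjusted p = 0.999), with -0.36 for IRF4 KO 1 minus WT 3 and -0.13 for the remaining 4 arrays. Its other probe set differed by -0.063 and overlapped. The share of all genes with no overlap and IRF4 KO lower was 3.31%.

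Several members were highest or lowest on the same pair of arrays, which holds 1 array of each genotype. IRF4 KO 1 and WT 3 were the 2 highest arrays in 13 of 50 members (26%, against 17.4% of all genes) and the 2 lowest in 12 (24%, against 19.8%). The 13 held 4 of 9 antagonists (Sfrp2, Sfrp4, Dkk2 and Dkk3), 3 receptors (Fzd6, Fzd8 and Fzd9), 3 ligands (Wnt16, Wnt5a and Wnt5b), Rspo3, Ctnnb1 and Axin1. The 12 held Wif1, Lef1, Fzd3, Fzd10 and 8 of the 19 ligands. Of the 5 members that ranged by more than 2 over the arrays, all were highest on these 2 arrays: Dkk2, Sfrp4, Sfrp2, Fzd9 and Rspo3. The share among all genes with so wide a range was not counted, so this cannot be read as particular to the members. Among genes above 4.89 in both genotypes 26.2% were highest there, and among the 22 members above it 9 were. Spike-in controls were low and cartilage, bone, macrophage and fibroblast markers high on these arrays, and the part of any of them in the members' levels was not tested.

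Scaling and weighting moved some of these counts. After quantile normalization 7 members did not overlap, against 7.33% of all genes, and 0 members reached an unadjusted p under 0.05, against 2.13% of all genes. With array weights 13 members reached it, against 23.4% of all genes, but the estimate of the weights did not converge and gave IRF4 KO 2 most of the weight.

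**Figure D3:**
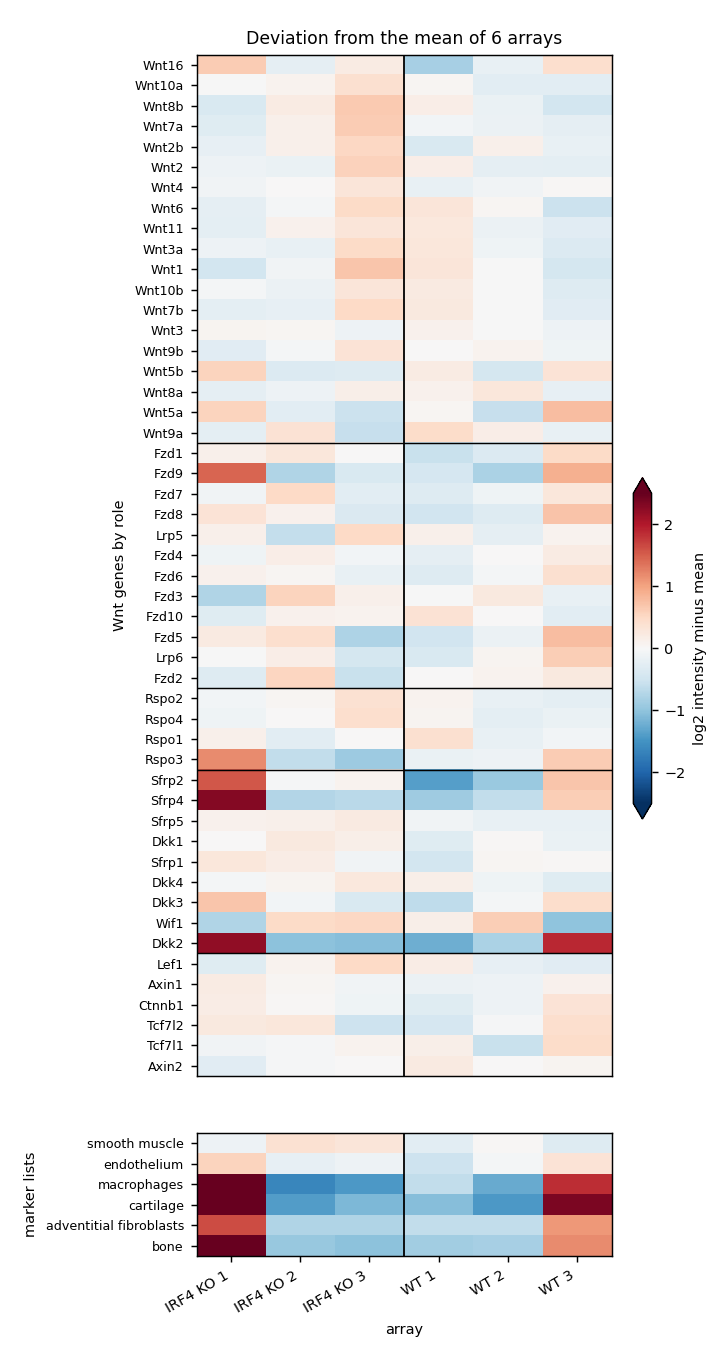
Deviation of each array from the mean of the 6 arrays (log2 intensity, colour) for the 50 Wnt genes by role, and for the mean of 6 marker lists below; columns are IRF4 KO 1 to 3 and then WT 1 to 3. Dkk2, Sfrp4, Sfrp2, Fzd9 and Rspo3 are high on IRF4 KO 1 and WT 3, as are the macrophage, cartilage, fibroblast and bone lists, and Wif1 is low there.

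The probe sets of a gene often disagreed. Of 31 members with more than 1 probe set, 16 had all differences in the same direction and 15 did not. Taken singly, 68 of 98 probe sets were higher in IRF4 KO and 30 lower, 0 passed, and 4 showed no overlap between genotypes, against 6.24% of all 34958 probe sets. An unadjusted p under 0.05 was found for 2 probe sets, against 1.83% of all. These were a second probe set of Sfrp1 (1.11) and of Fzd6 (0.51), and neither passed after adjustment. Ctnnb1 differed by 0.89 on a weaker probe set, where WT 1 read low (6.35, against 8.31 to 9.12 on the others), and by 0.060 on the probe set used.

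**Figure D4:**
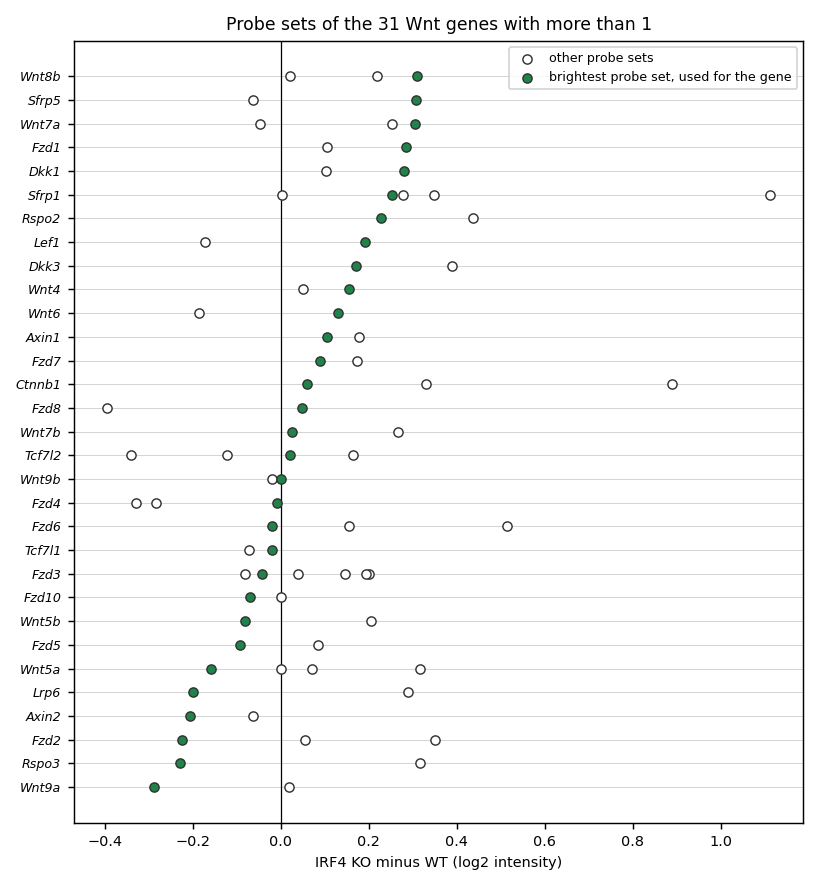
Difference between IRF4 KO and WT (log2 intensity, horizontal axis) for every probe set of the 31 Wnt genes with more than 1; filled points are the brightest probe set, used for the gene, and open points the others. In 15 genes the points fall on both sides of 0, as for Lrp6 and Rspo3, while all 5 Sfrp1 probe sets lie above it, from 0.0022 to 1.11.

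Other genes of the pathway were listed by role. Of 58 listed, 57 were measured: 29 were higher and 28 lower in IRF4 KO, 0 were called, and the median was 0.016. By role, 4 of 14 cytoplasmic signalling genes and 3 of 9 planar cell polarity genes were higher. Porcn, the acyltransferase that lipid-modifies Wnt ligands for secretion, had the smallest p of the list. It read 4.92, 5.07 and 4.79 in IRF4 KO, against 5.55, 5.55 and 5.38 in WT. The genotypes did not overlap in Porcn, 1 of 57 in the list, where 5.68% of all genes did not overlap. The difference was -0.57 (SE 0.18, limma adjusted p = 0.999). Porcn was also the 1 of 57 with an unadjusted p under 0.05, where the share over all genes was 1.49%. Its partner in secretion, Wls, which carries Wnt proteins to the cell surface, differed by 0.38. Next by p were Chd8, a repressor of beta-catenin targets (-0.60), the signal transducer gene Dvl1 (-0.63) and Daam1, a formin of the polarity branch (-0.33), each with an adjusted p of 0.999 and overlapping genotypes.

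Genes often used as beta-catenin targets were split in direction. Of 22 listed symbols 19 were measured, with 9 higher, 10 lower, 0 called and a median of -0.058. Ccnd1, which encodes cyclin D1 of the G1 phase, read 7.38, 7.30 and 7.34 in IRF4 KO, against 6.16, 6.09 and 6.32 in WT (1.15, SE 0.17, limma adjusted p = 0.252). The genotypes lay far apart relative to their SDs of 0.042 and 0.12, and 0.252 was also the smallest adjusted p over all genes. Myc, a growth regulator, went the other way, with 5.46, 4.87 and 4.98 in IRF4 KO, against 5.6, 5.50 and 5.86 in WT (-0.55, SE 0.22, limma adjusted p = 0.999). Bambi (-0.38) and Tnfrsf19 (-0.33) were lower with no overlap, as was Axin2. In all, 5 of the 19 did not overlap, 1 higher and 4 lower, where 5.68% of all genes did not (2.37% higher and 3.31% lower).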

How the data were processed

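Log2 probe set intensities of 6 Affymetrix mouse arrays, 3 IRF4 KO and 3 WT, were used as deposited. Per the submitters' processing notes, the authors made these log2 values with Affymetrix Expression Console and RMA; the sources used here state neither version nor settings. Array medians lay between 3.94 and 4.12. Of 45101 probe sets, 34958 had 1 gene symbol in the platform annotation; symbols of the 98 member probe sets were checked by Entrez number against RefSeq (GRCm38.p6), and 0 differed. Each gene took its brightest probe set, with no filter. IRF4 KO was compared with WT by a two-sided limma fit (version 3.58.1, R 4.3.3; eBayes with no trend, no covariate), adjusted by Benjamini-Hochberg over 18194 genes; intervals are 95%. The test was checked on simulated data. Their noise was drawn independently for each gene and array, so arrays that stand apart together were not simulated. The number of arrays limits the precision, and p-values measure the spread between pools of vessels.

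Values in every array are given for the 3 brightest and the 2 most variable members of each role, and for members with an unadjusted p under 0.05 or no overlap. Of the other lists, up to 4 genes with the smallest p are named. Array values are given for Porcn, Ccnd1 and Myc, and differences for the rest. Members and lists were chosen with earlier results of these data known. The alternatives tried comprised the mean of a gene's probe sets, blocking on the replicate number, dim genes left out, array median subtraction and quantile normalization. Further ones were a robust trend, array weights, leaving out arrays, a spike-in block and an adjusted p under 0.1. The pair IRF4 KO 1 and WT 3, blocked or left out together, was chosen from earlier results of these same data. Each probe set on its own was added after seeing the data. Correlations between same-numbered arrays of their deviations from the genotype means were -0.52, 0.37 and -0.62 for replicates 1 to 3. Only the arrays numbered 2 thus tended to deviate together.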

Additional observations from a re-analysis of the deposited data

How the results depend on the processing

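With limma, 0 Wnt genes were called under every alternative run, and 0 other pathway genes. All genes called numbered 0 in the comparison as designed, 68 with array weights and 5 without IRF4 KO 1 and WT 3; with array weights 1 Wnt target gene was called, Ccnd1. The estimate of the weights did not converge. It gave IRF4 KO 2 a weight of 26.7, against 0.28 to 2.57 for the other arrays, so that fit rests on 1 IRF4 KO array. Wnt genes at an unadjusted p under 0.05 numbered 0 as designed (1.49% of all genes) and 13 with array weights (23.4% of all genes). Without IRF4 KO 1 and WT 3 there were 3 (Sfrp2, Fzd1 and Rspo3), against 3.87% of all genes. The spike-in block gave 1 (3.68% of all genes) and each probe set on its own 2 (1.83% of all probe sets). With 1 array left out the count was 0 to 2 (0.912% to 4.08% of all genes). Wnt genes with no overlap numbered 2 as designed (5.68% of all genes) and 7 after quantile normalization (7.33% of all genes). There were 4 with each probe set (6.24% of all probe sets) and 0 with dim genes left out (5.87% of the genes kept). Without IRF4 KO 1 and WT 3 there were 13 (29.9% of all genes). With 1 array left out there were 3 to 8 (11% to 20.2% of all genes), the 8 and the 20.2% both without IRF4 KO 1. The cause of these moves was not tested, beyond the fewer arrays or genes in some fits.

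The median difference of the members stayed between 0.054 and 0.160 over all alternatives. Of the 24 members that the rule gives in every array, 7 turned sign without IRF4 KO 1, 7 without WT 1, 11 with array weights and 0 with the replicate block. That block called 0 genes and changed no call, and the numbers share no stated origin. Sfrp2 differed by 0.57 without IRF4 KO 1 and 1.68 without WT 3, and its adjusted p ran upward from 0.143. The difference of Irf4 lay between -0.19 and 0.11 and kept an adjusted p above 0.05 throughout. Probe sets near background limit what can be seen for the 28 dim members.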
